A study of Mus musculus with 8 samples.

Results

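Expression of 9 genes that make or restrain matrix-degrading proteases was followed in endothelial cells of the mouse lung: the inhibitors Timp1, Timp2 and Timp3, the metalloproteinases Mmp2, Mmp14 and Adamts1, and the plasminogen activation genes Plaur, Plau and Plat. They are 9 of the 43430 genes in the count table, and all 9 were found by symbol. They were selected on their family, with the KO and WT values of these same libraries already known, so their own KO against WT values are given below as a description, without p-values. RNA was sequenced from CD31-sorted lung cells of C57BL/6 mice at postnatal day 15, in 4 KO and 4 WT libraries. KO mice had lost QPC, a subunit of mitochondrial complex III, in endothelial cells, and QPC was taken to be the product of Uqcrq. The labels call the others WT and do not say whether they carry Cre. The labels give tamoxifen on postnatal days 0 to 4 for all 8 samples, KO and WT, while the series text names day 0 alone. The sources used here name neither the Cre driver nor the deleted exons, and do not state that each library came from its own animal, so the spread between libraries may in part be technical.

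Matrix metalloproteinases (MMPs) are zinc enzymes that cut collagens, basement membrane and cell surface proteins. The tissue inhibitors of metalloproteinases (TIMPs) bind their active sites. MMP14 sits in the membrane and, with TIMP2 as an adaptor, activates the MMP2 proenzyme. The plasminogen activators PLAU (urokinase) and PLAT (tissue-type) turn plasminogen into plasmin, a broad protease that dissolves fibrin and can activate MMPs. PLAUR is the receptor that holds urokinase at the cell surface. Endothelial cells use this set in sprouting, in barrier remodelling and in clearing clots from the vessel lumen.

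Total counts ran from 6407924 to 13981329 per library. Values are normalised CPM, read counts scaled to library size. The deleted gene Uqcrq stood at 1.59, 15.6, 9.57 and 13.97 CPM in KO replicates 1 to 4, against 26.3, 24.5, 26.8 and 31.5 CPM in WT replicates 1 to 4. Every KO value was below every WT value, with KO replicate 1 lowest (log2 fold change -1.42, SE 0.53, adjusted p = 0.179 by the quasi-likelihood test of edgeR, over alternatives 0.0524 to 0.333). Before adjustment over all genes the edgeR p was 0.0165. An exact two-sided permutation test of mean CPM gave p = 0.0286, the smallest value that 4 against 4 libraries allow. Of 10 endothelial markers, all were tested and their summed level was 13812 to 19758 CPM in KO and 17204 to 21140 CPM in WT. Tek and Erg fell, 2 of the 10. The cells were not free of other lung RNA. Summed markers of alveolar type 2 cells took 3644 to 16005 CPM in KO, against 3805 to 21996 CPM in WT. Fibroblast markers took 313 to 1337 CPM in KO, against 412 to 1496 CPM in WT. Pericyte and smooth muscle markers took 151 to 357 CPM in KO, against 131 to 508 CPM in WT. Macrophage markers took 406 to 1508 CPM in KO, against 465 to 2042 CPM in WT. The macrophage sum was almost all Lyz2, which alveolar type 2 cells also express, and Chil3 had 0 counts in all 8 libraries. Of these 4 lists, with 8, 9, 10 and 8 genes, only the fibroblast list held a gene past the threshold, Mfap4, which fell.

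Of the 9 genes, 3 passed the threshold of an adjusted p of 0.05 as higher in KO (Timp3, Plaur and Plat) and the other 6 did not pass. Over all 12689 genes tested 461 passed, 3.63%. Of these 285 were higher in KO, 2.25%, and 176 were lower, 1.39%, and after correction for transcript length and GC content the split was 57 higher and 93 lower. The 3 called genes span the inhibitor and the plasminogen activation groups. The median log2 fold change of the 9 genes was 0.35, against 0.01 over all genes tested. In 5 of the 9 the KO and WT values did not overlap (KO above WT for Timp1, Timp3, Plaur and Plat, and below for Adamts1), which was so for 11.6% of all genes tested. As the genes were chosen with this contrast known, nothing is read from these shares.

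**Figure D1:**
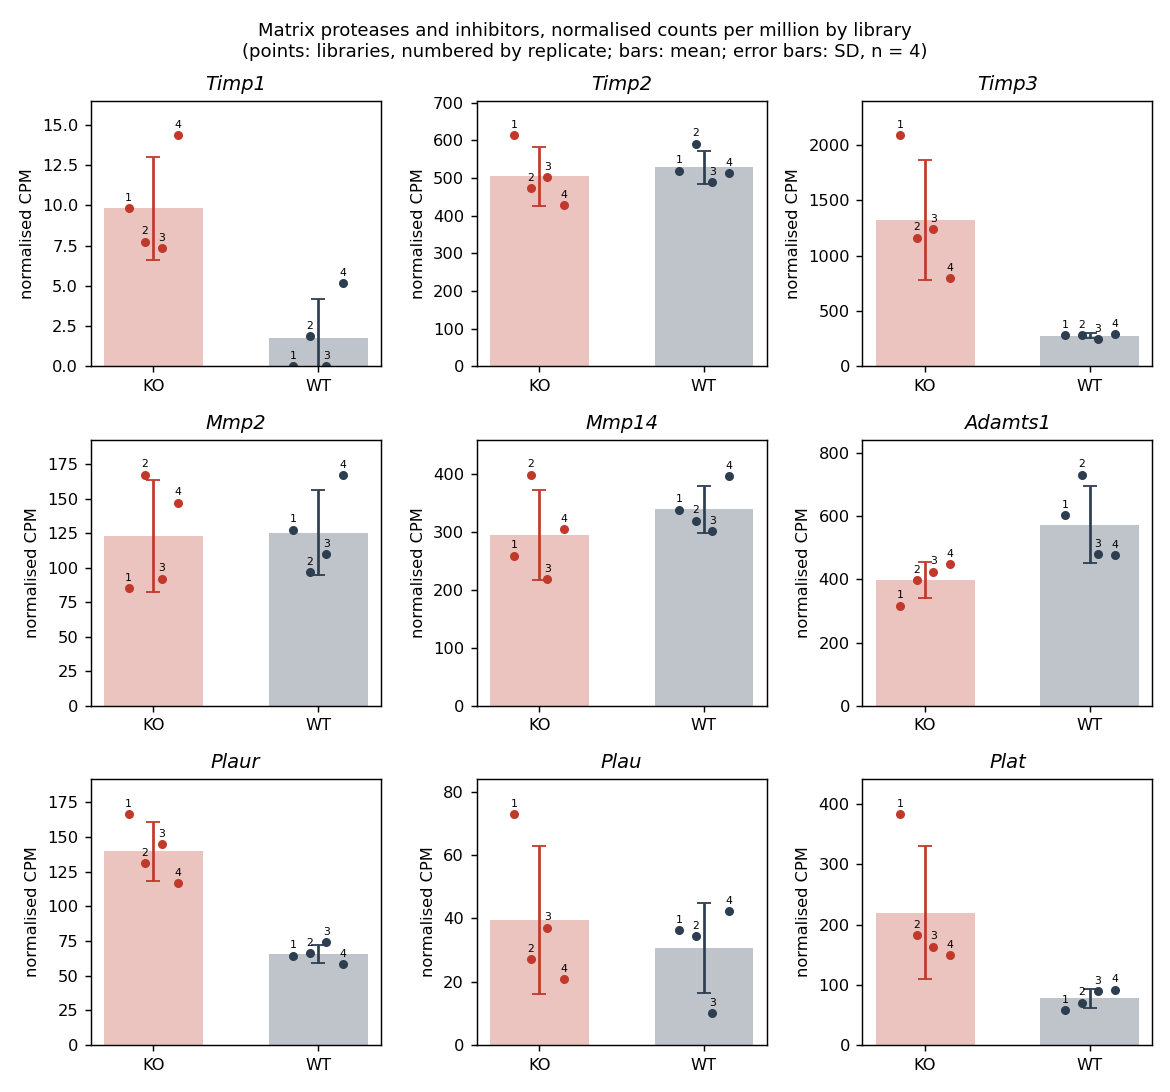
Normalised CPM (vertical axes, each starting at 0) of the 9 genes in KO (left) and WT (right) libraries; points are libraries numbered by replicate, bars are means and error bars are SD (n = 4). Timp3, Plaur, Plat and Timp1 have every KO library above every WT library, and KO replicate 1 is the highest KO library for Timp3, Plaur, Plat, Plau and Timp2.

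Timp3 (ENSMUSG00000020044; GRCm38 chromosome 10, 86300372 to 86349506, plus strand), a TIMP that stays bound to the matrix and can block VEGF receptor 2 as well as metalloproteinases, had the highest mean level per kb of exon of the 9 genes in KO cells, although Timp2 was higher in KO replicate 4 (110.1 CPM per kb, against 98.3 CPM per kb for Timp3). It had 2085, 1162, 1242 and 801 CPM in KO replicates 1 to 4, against 286, 283, 245 and 295 CPM in WT replicates 1 to 4. The lowest KO library thus lay far above the highest WT library, and the KO libraries spread widely while the WT libraries lay close together. The means were 1322 ± 543 CPM in KO and 277 ± 22.1 CPM in WT (SD, n = 4 each), a log2 fold change of 2.25 (SE 0.24), or 4.77-fold. In these bulk libraries more cells of a type with high Timp3 and more Timp3 RNA per cell cannot be told apart. WT Timp3 lay between 245 and 295 CPM while the alveolar type 2 sum in the same 4 libraries ran from 3805 to 21996 CPM. The part of alveolar type 2 RNA in the Timp3 level was not tested. The gene lies opposite Syn3, a synapsin gene on the other strand, with which it shares 1733 exon bases. The strand setting of the counting is not given, so reads there cannot be assigned by strand. Syn3 itself had a mean of 2.19 CPM in KO and 2.21 CPM in WT.

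Timp2 (chromosome 11, 118301069 to 118355740, minus strand), the inhibitor that also serves MMP14 as an adaptor, had 613, 473, 503 and 429 CPM in KO replicates 1 to 4, against 520, 592, 489 and 514 CPM in WT replicates 1 to 4. The groups overlapped, and the 4 WT values lay within the KO range. Its means were 505 ± 78.4 CPM in KO and 529 ± 44.2 CPM in WT (SD, n = 4 each; log2 fold change -0.07, SE 0.14).

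Timp1 (chromosome X, 20870166 to 20874735, plus strand), a soluble TIMP that is often induced in injured tissue, was rare. Raw counts were 105, 99, 93 and 198 in KO replicates 1 to 4, against 0, 22, 0 and 63 in WT replicates 1 to 4. In CPM this was 9.83, 7.75, 7.36 and 14.3 in KO and 0, 1.90, 0 and 5.19 in WT. Every KO library lay above every WT library, and 2 WT libraries had no read. The fitted log2 fold change of 2.45 had an SE of 1.40 and did not pass, and at such counts it moved with both the model and the libraries: it was 4.36 by limma voom, 3.90 without WT replicate 4 and 2.04 without WT replicate 1. Timp1 passed the filter on low counts through its KO libraries. The mean was 9.82 ± 3.20 CPM in KO and 1.77 ± 2.45 CPM in WT (SD, n = 4 each).

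Timp3 took a larger share of the TIMP transcripts in KO libraries. Per kb of exon, Timp3 made up 60.3%, 52.3%, 52.6% and 43.8% of the Timp1, Timp2 and Timp3 level in KO replicates 1 to 4, against 20.8%, 18.4%, 19.4% and 20.8% in WT replicates 1 to 4. The summed level of the 3 TIMPs was 303 ± 85.6 CPM per kb in KO and 172 ± 13.8 CPM per kb in WT (SD, n = 4 each).

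**Figure D2:**
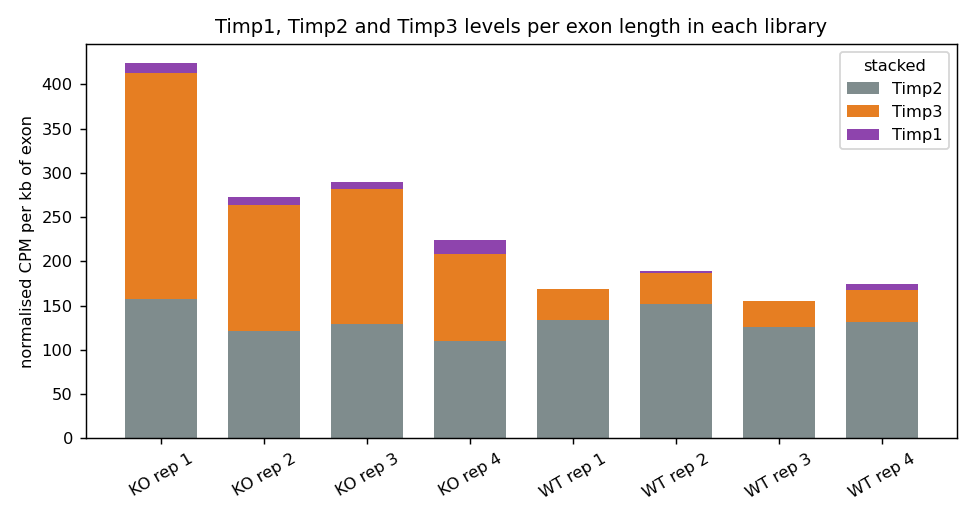
Stacked levels of Timp2, Timp3 and Timp1 in normalised CPM per kb of exon (vertical axis) in each KO (left) and WT (right) library. The Timp2 segment is similar across the 8 libraries, and the Timp3 segment is larger in every KO library than in any WT library.

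Mmp14 (chromosome 14, 54431612 to 54445364, plus strand), the membrane-bound collagenase, had 259, 399, 218 and 304 CPM in KO replicates 1 to 4, against 338, 319, 301 and 396 CPM in WT replicates 1 to 4. The groups overlapped, with KO replicate 2 the highest of all 8 libraries and KO replicate 3 the lowest. The means were 295 ± 77.4 CPM in KO and 338 ± 41.3 CPM in WT (SD, n = 4 each; log2 fold change -0.20, SE 0.17).

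Mmp2 (chromosome 8, 92827291 to 92853420, plus strand), the gelatinase that MMP14 activates, had 85.2, 168, 92.2 and 147 CPM in KO replicates 1 to 4, against 128, 97.0, 110 and 167 CPM in WT replicates 1 to 4. Both groups covered about the same range. The means were 123 ± 40.6 CPM in KO and 125 ± 30.5 CPM in WT (SD, n = 4 each; log2 fold change -0.03, SE 0.23), and the sign of this small difference turned when KO replicate 1 (0.11), KO replicate 3 (0.09) or WT replicate 4 (0.14) was left out. Fibroblasts are a known source of Mmp2. The fibroblast marker sum was 313, 1337, 885 and 404 CPM in KO replicates 1 to 4, against 1103, 412, 1157 and 1496 CPM in WT replicates 1 to 4. In each genotype the library with the least Mmp2 also had the least fibroblast RNA and the library with the most Mmp2 had the most. Between the remaining libraries of each genotype the order was the opposite. In KO, Mmp2 was 92.2 CPM beside a fibroblast sum of 885 CPM in replicate 3 and 147 CPM beside 404 CPM in replicate 4. In WT, Mmp2 was 128 CPM beside a fibroblast sum of 1103 CPM in replicate 1 and 110 CPM beside 1157 CPM in replicate 3. The part of fibroblast RNA in the Mmp2 level was not tested. Within a library the ratio of summed TIMP to summed Mmp2 and Mmp14 levels per kb was 6.17, 2.34, 4.53 and 2.37 in KO replicates 1 to 4, against 1.78, 2.29, 1.87 and 1.50 in WT replicates 1 to 4, so that the lowest KO ratio lay just above the highest WT ratio.

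Adamts1 (chromosome 16, 85793827 to 85803113, minus strand), a secreted metalloproteinase that cuts versican and binds VEGF, had 317, 398, 425 and 449 CPM in KO replicates 1 to 4, against 604, 732, 479 and 477 CPM in WT replicates 1 to 4. Every KO library lay below every WT library, but the highest KO and the lowest WT value were close. The means were 397 ± 57.3 CPM in KO and 573 ± 121 CPM in WT (SD, n = 4 each). On the log2 scale the difference was -0.53 (SE 0.16), which edgeR did not call. It passed by DESeq2 (-0.56), with no filter on low counts (-0.53) and with edgeR's newer dispersion option (-0.53).

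Plaur (ENSMUSG00000046223; chromosome 7, 24462484 to 24475968, plus strand), the urokinase receptor, had 167, 131, 145 and 117 CPM in KO replicates 1 to 4, against 64.5, 66.2, 74.1 and 58.1 CPM in WT replicates 1 to 4. The groups were far apart, and spread was small in both. The means were 140 ± 21.3 CPM in KO and 65.7 ± 6.60 CPM in WT (SD, n = 4 each), a log2 fold change of 1.09 (SE 0.18), or 2.13-fold. After correction for transcript length and GC content the log2 fold change was 0.84 and did not pass.

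Plat (ENSMUSG00000031538; chromosome 8, 22757727 to 22782844, plus strand), the tissue-type plasminogen activator that endothelium releases to dissolve clots, had 384, 182, 163 and 149 CPM in KO replicates 1 to 4, against 58.0, 70.3, 89.5 and 91.9 CPM in WT replicates 1 to 4. KO replicate 1 stood well above the other 3 KO libraries, which in turn all lay above the WT libraries. The means were 220 ± 111 CPM in KO and 77.4 ± 16.1 CPM in WT (SD, n = 4 each), a log2 fold change of 1.50 (SE 0.29), or 2.84-fold. Without KO replicate 1 it was 1.09 and still passed. It passed in 15 of 18 alternatives, and among those in which it did not were WT replicate 2 left out (1.46) and the correction for length and GC (1.46).

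Plau (chromosome 14, 20836660 to 20843385, plus strand), which encodes urokinase, had 73.1, 27.1, 37.1 and 20.7 CPM in KO replicates 1 to 4, against 36.2, 34.4, 10.02 and 42.4 CPM in WT replicates 1 to 4. The groups overlapped, with the highest value in KO replicate 1 and the lowest in WT replicate 3, the library with the fewest reads. The means were 39.5 ± 23.4 CPM in KO and 30.8 ± 14.2 CPM in WT (SD, n = 4 each; log2 fold change 0.35, SE 0.45), and without KO replicate 1 the sign turned (-0.12).

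Levels of different genes were set side by side per kb of exon. In KO the order of the means was Timp3 (162 ± 66.7 CPM per kb), Timp2 (129 ± 20.1), Adamts1 (74.9 ± 10.8), Plaur (53.5 ± 8.14), Mmp14 (49.5 ± 13.0), Mmp2 (36.5 ± 12.0), Plat (35.2 ± 17.7), Plau (16.7 ± 9.87) and Timp1 (11.1 ± 3.60), with SD over 4 libraries. In this order only Timp2 and Adamts1 were neighbours whose KO libraries did not overlap. In WT it was Timp2 (136 ± 11.3 CPM per kb), Adamts1 (108 ± 22.9), Mmp14 (56.8 ± 6.93), Mmp2 (37.2 ± 9.06), Timp3 (34.1 ± 2.71), Plaur (25.1 ± 2.52), Plau (13.0 ± 6.02), Plat (12.4 ± 2.59) and Timp1 (1.99 ± 2.75). WT libraries overlapped between Timp2 and Adamts1, between Mmp2 and Timp3 and between Plau and Plat, and between no other neighbours. Timp3 thus ranked 5 of 9 in WT and 1 of 9 in KO. Per kb of the longest transcript, a measure added after the data were seen, it ranked 1 of 9 in KO (280.1 ± 115 CPM per kb) and 4 of 9 in WT (58.7 ± 4.68 CPM per kb), with no KO library of Timp3 below any of Timp2.

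KO replicate 1, the library with the least Uqcrq, was the extreme KO library for most of the set. It had the most Timp2, Timp3, Plaur, Plau and Plat and the least Mmp2 and Adamts1 of the 4 KO libraries. It also had the lowest fibroblast (313 CPM), pericyte and smooth muscle (151 CPM) and alveolar type 2 (3644 CPM) sums and the highest endothelial sum (19758 CPM) of the KO libraries. WT replicate 2, 1 library of the other genotype, had similarly low sums (412, 131 and 3805 CPM). Of the WT libraries it also had the highest endothelial sum (21140 CPM), the most Timp2 (592 CPM) and the least Mmp2 (97.0 CPM). Unlike KO replicate 1 within KO, it had the most Adamts1 of its group (732 CPM). In WT replicate 2 Timp3 (283 CPM), Plaur (66.2 CPM), Plat (70.3 CPM) and Plau (34.4 CPM) each lay inside the range of the other 3 WT libraries. The part of cell mix in the member levels of either library was not tested. Without KO replicate 1 Timp3 kept a log2 fold change of 1.95 and Plaur one of 1.00, and both still passed.

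**Figure D3:**
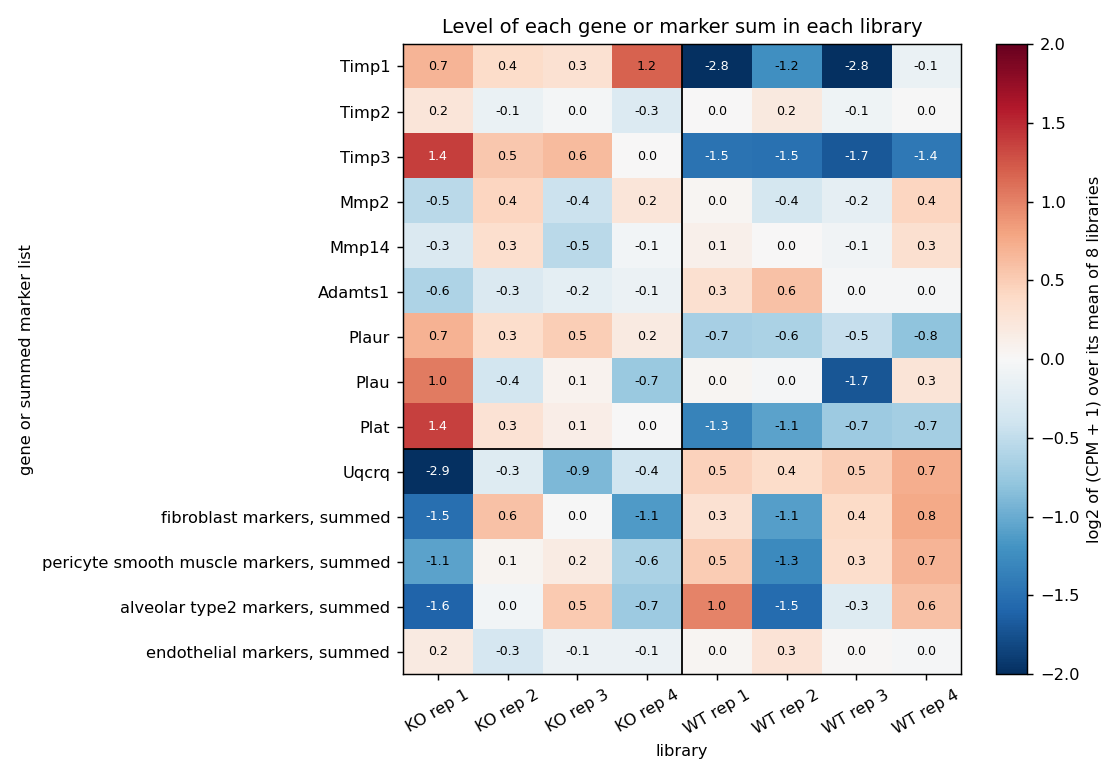
Log2 of (CPM + 1) over its mean of 8 libraries, for the 9 genes (upper rows) and for Uqcrq and 4 summed marker lists (lower rows), in KO (left) and WT (right) libraries; colours end at -2 and 2. KO replicate 1 is the deepest red among KO libraries for Timp3, Plaur, Plau and Plat and the deepest blue for Uqcrq and for the fibroblast, pericyte and alveolar type 2 sums.

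Across the 8 libraries Timp3, Plaur and Plat had similar patterns on the log2 CPM scale. Pearson's r was 0.972 for Timp3 with Plaur, 0.939 for Timp3 with Plat and 0.914 for Plaur with Plat. The 8 points form 2 genotype groups, so these values mostly restate the difference between KO and WT. With each group's mean taken off they were 0.693, 0.780 and 0.639, and KO replicate 1 is the highest KO library in all 3. Mmp2 and Mmp14 also ran together (r = 0.831, and 0.878 with group means taken off). All r values are descriptions over 8 libraries that share depth and cell mix, and the nearest genes below are the 2 highest of all genes compared. Nearest to Timp3 were Eif2s2, a subunit of translation initiation factor 2 (r = 0.988), and Mthfd2, a mitochondrial folate enzyme (r = 0.986). Nearest to Plaur were Lmna, which encodes lamin A/C (r = 0.991), and again Mthfd2 (r = 0.987). Among the nearest to Plat was Rela, a subunit of NF-kappaB (r = 0.973). Nearest to Mmp14 were Loxl2, a collagen cross-linking oxidase (r = 0.995), and Ucp2 (r = 0.954). The nearest pairs were Zfp369 and Tbcb for Timp1, Vamp2 and Mbnl1 for Timp2, Slc25a42 and Opn3 for Mmp2, Zfp292 and Abr for Adamts1, and Ncoa7 and Strip2 for Plau, with r from 0.950 to 0.995. With group means taken off, r of the nearest genes ran from 0.835 (Plaur with Mthfd2) to 0.997 (Timp2 with Vamp2). Some of these genes were rare, and Opn3 averaged 1.25 CPM in KO and 1.49 CPM in WT.

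Promoter sequence was looked up for the 9 genes in RefSeq promoters of GRCm38.p6. These are windows of 300 bases that end 50 bases after the start RefSeq gives for the gene, which can differ from the GENCODE start printed above. The Timp2 window lies wholly inside its GENCODE gene. All but Mmp2, Plau and Plat had an entry, 6 of the 9, among them Plaur (chr7:24462233-24462532, plus strand) and Timp3 (chr10:86300162-86300461, plus strand), which are shown because both were called higher. Capitals mark matches to TGANTCA, the AP-1 motif, or to TGATGNAA, the composite element of ATF4 and C/EBP factors, searched on both strands with overlaps allowed.
Plaur: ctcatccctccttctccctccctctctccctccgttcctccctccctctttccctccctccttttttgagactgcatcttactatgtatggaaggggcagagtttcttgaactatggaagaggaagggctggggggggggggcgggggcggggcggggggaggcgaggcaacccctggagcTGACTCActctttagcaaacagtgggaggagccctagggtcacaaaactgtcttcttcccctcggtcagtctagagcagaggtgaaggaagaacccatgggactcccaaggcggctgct
Timp3: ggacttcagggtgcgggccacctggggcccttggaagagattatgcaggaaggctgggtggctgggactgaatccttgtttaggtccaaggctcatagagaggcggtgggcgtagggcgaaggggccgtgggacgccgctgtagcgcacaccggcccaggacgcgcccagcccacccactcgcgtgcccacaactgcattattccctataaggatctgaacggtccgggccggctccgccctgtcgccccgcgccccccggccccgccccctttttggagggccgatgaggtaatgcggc
Plaur held 1 match, TGACTCA, which starts at -69 from the RefSeq start. The Timp3 window, and those of Timp1, Timp2, Mmp14 and Adamts1, held neither motif. Of 32851 mouse promoters of the same 300 bases 7.81% held TGANTCA and 3.97% held TGATGNAA. A match is a description of the letters, not a binding site.

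The wider protease families were described from lists written from general knowledge, but with earlier results of these data already known. The adjusted p-values of these genes are therefore no independent support. The counts below are from the same fit across all genes, and the percentages of all genes called given above apply to them. Among 14 other genes of the plasminogen system 7 were tested, and 3 rose (Anxa2, S100a10 and Eno1), with a median log2 fold change of 0.75 against 0.01 over all genes tested. Anxa2 and S100a10 encode the annexin A2 complex that holds plasminogen and PLAT on the endothelial surface. Anxa2 had 681, 701, 727 and 773 CPM in KO replicates 1 to 4, against 469, 387, 378 and 316 CPM in WT replicates 1 to 4, and no libraries overlapped. Its log2 fold change was 0.90 (SE 0.14, edgeR adjusted p = 0.00141, over alternatives 6.98e-09 to 0.120). S100a10 averaged 225 ± 30.3 CPM in KO and 134 ± 16.4 CPM in WT (SD, n = 4 each; log2 fold change 0.75, SE 0.16, edgeR adjusted p = 0.0108, over alternatives 0.000482 to 0.519). Both calls ended after the correction for length and GC. Eno1, a glycolytic enzyme that also binds plasminogen and has near-identical copies in the genome, averaged 182 ± 23.9 CPM in KO and 109 ± 25.3 CPM in WT (SD, n = 4 each). It had an edgeR adjusted p of 0.0309 and passed in 10 of 18 alternatives (0.00961 to 0.252). Among the 8 alternatives that ended its call were the correction for length and GC (0.252) and 6 in which a library was left out. These were without KO replicate 2 (0.120), 3 (0.0851) or 4 (0.0682) and without WT replicate 1 (0.0779), 2 (0.0850) or 3 (0.0779), with log2 fold changes of 0.64 to 0.75, against 0.75 with all libraries.

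Plg, which encodes plasminogen itself and is made by the liver, and Serpinf2, its plasma inhibitor, had 0 counts in all 8 libraries.

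Of 21 other MMP genes 9 had no count in any library and 8 were tested. One fell: Mmp28 (epilysin) had 32.8, 35.6, 44.5 and 41.3 CPM in KO replicates 1 to 4, against 69.7, 96.9, 161 and 94.4 CPM in WT replicates 1 to 4. The groups lay apart, with a wide spread in WT (log2 fold change -1.45, SE 0.25, edgeR adjusted p = 0.00362, past the threshold in 18 of 18 alternatives, 1.43e-05 to 0.0129). Mmp15, a membrane-type MMP, was the most abundant of this list, with 494 ± 32.9 CPM in KO and 488 ± 69.5 CPM in WT (SD, n = 4 each). The median log2 fold change of the 8 genes was -0.11. Mmp13, an interstitial collagenase, and Adamts14, a procollagen peptidase, were rare. Both had 0 counts in every WT library and are named after their values were seen. Mmp13 had 21 to 34 counts per KO library (2.31 ± 0.708 CPM). Its KO mean was 7.68-fold the mean CPM that a floor of 3 counts makes in the WT libraries. Adamts14 had 18 to 77 counts per KO library (4.01 ± 1.84 CPM), with a mean 13.3-fold that floor. These ratios of means leave out the spread between libraries. Neither gene passed (edgeR adjusted p = 0.144 and 0.0858, over alternatives 0.0910 to 0.392 and 0.0537 to 0.295), and both genes entered the test through their KO libraries.

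Of 18 other ADAMTS genes 13 were tested and 0 passed by edgeR (2 at an unadjusted p under 0.05, 1 by DESeq2, 0 by limma voom). The most abundant were Adamts9, with 90.1 ± 12.3 CPM in KO against 71.0 ± 25.7 CPM in WT, and Adamts10, with 69.4 ± 13.8 CPM in KO against 76.8 ± 10.5 CPM in WT (SD, n = 4 each). The ADAM sheddases, membrane enzymes that release growth factors and receptors, had 7 of 9 genes tested and 0 passed by edgeR (2 at an unadjusted p under 0.05, 1 by DESeq2, 0 by limma voom). Adam15 averaged 486 ± 64.9 CPM in KO against 365 ± 16.4 CPM in WT, and Adam10 averaged 311 ± 36.2 CPM in KO and 245 ± 23.5 CPM in WT (SD, n = 4 each). Of 5 other metalloproteinase inhibitors 3 were tested and 0 passed by edgeR (0 at an unadjusted p under 0.05, 0 by DESeq2 and 0 by limma voom). Reck, a membrane-anchored MMP inhibitor, averaged 20.3 ± 8.58 CPM in KO against 29.7 ± 9.87 CPM in WT, and Tfpi2 was rare, with 2.11 ± 1.52 CPM in KO and 3.33 ± 4.09 CPM in WT (SD, n = 4 each).

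Among 15 cathepsin and cystatin genes, the lysosomal proteases and their inhibitors, 13 were tested and 0 passed by edgeR (4 at an unadjusted p under 0.05, 1 by DESeq2, 1 by limma voom). Ctsd averaged 665 ± 158 CPM in KO against 485 ± 62.2 CPM in WT, and Ctsb averaged 329 ± 26.9 CPM in KO and 334 ± 50.4 CPM in WT (SD, n = 4 each). Of 14 other matrix proteases and convertases 12 were tested and 1 fell. It was Dpp4, a surface peptidase found on lung capillaries, with 107, 108, 136 and 124 CPM in KO replicates 1 to 4, against 287, 273, 220 and 239 CPM in WT replicates 1 to 4. The groups lay well apart (log2 fold change -1.11, SE 0.15, edgeR adjusted p = 0.000812, past the threshold in 18 of 18 alternatives, 8.31e-11 to 0.00590). Furin, the convertase that matures MMP14 and ADAM proteins, averaged 243 ± 45.1 CPM in KO and 152 ± 37.1 CPM in WT (SD, n = 4 each) and had an edgeR adjusted p of 0.0650 (over alternatives 0.0137 to 0.196). The plot of fold changes sets all these genes side by side.

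**Figure D4:**
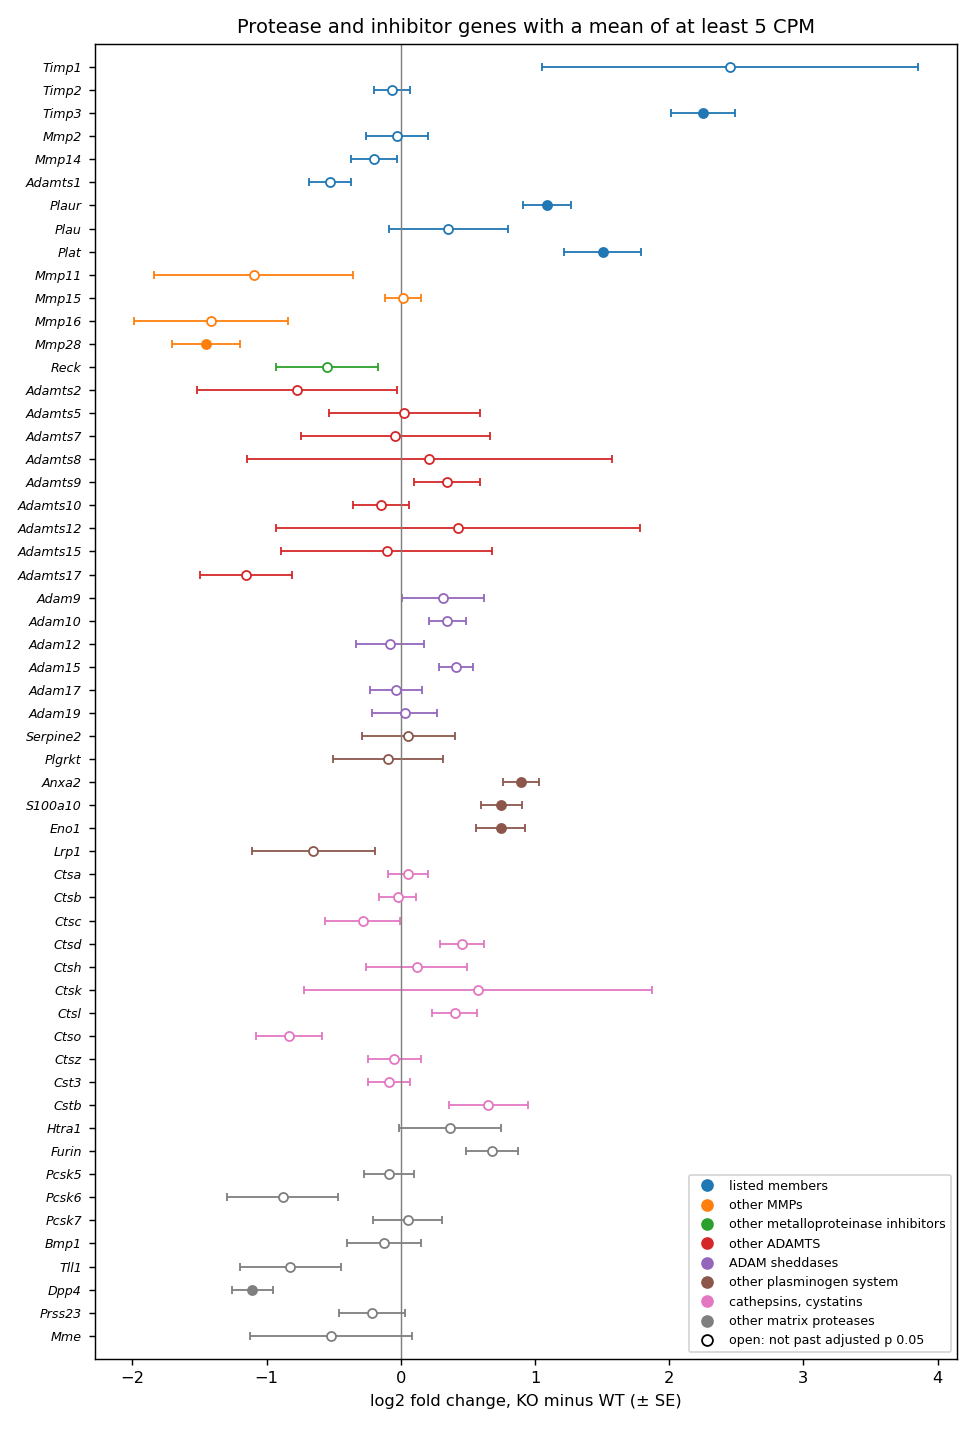
Log2 fold change, KO minus WT, with SE (horizontal axis) of 56 listed protease and inhibitor genes that were tested, are reported here and had a mean of at least 5 CPM, one gene per line, coloured by list; filled points passed an adjusted p of 0.05 by edgeR and open points did not. Timp3, Plat, Plaur, Anxa2, S100a10 and Eno1 are filled to the right of 0, and Mmp28 and Dpp4 are filled to the left.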

How the data were processed

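The deposited table holds raw read counts per Ensembl gene, whole numbers, with 1 column per library. The submitters' processing notes list TopHat, HTSeq, bcl2fastq and edgeR and build mm10, with no versions, roles or order. The sources used here do not give the annotation release, the strand setting or any filters. All 8 value columns matched a sample title. Symbols came from GENCODE M21 (GRCm38, the build called mm10) for 42462 of 43430 IDs, and coordinates from the same release.

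TMM factors scaled the counts. The filterByExpr filter (a count of at least 10, a total of at least 15) kept 12689 genes. KO was compared with WT across all genes by edgeR 4.0.16 (quasi-likelihood F test, robust, genotype as the only term, R 4.3.3), with Benjamini-Hochberg adjustment and a threshold of 0.05. Each SE was derived from its F statistic. Variation between replicates beyond counting error had a common coefficient of 63.5%, which edgeR calls biological but which may in part be technical. Log2 CPM for patterns used a prior count of 2. Replicates of a group differed by more than sampling noise (chi-square over its degrees of freedom, 32.4 to 74.6). The floor of 3 counts covers counting error only, and reads carry no molecular identifiers. The SDs and SEs include the spread between libraries. The fit was checked on simulated counts with known fold changes.

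The 9 genes and the other lists were chosen with earlier results of these data known. Named from each other list were genes past the threshold (at most 6) and the 2 with the highest mean CPM. For each of the 9 genes the 2 genes with the highest r were named, unnamed gene models left out. One gene of the plasminogen list, which the counts include, and one of the nearest genes are not reported here. Marker genes for other cells (platelet, lymphocyte, neutrophil, mesothelial and lymphatic lists too) were fixed at the same time. In those 5 lists no gene that was tested passed the threshold by edgeR, but many were too rare to test. Tested were 4 of 5 platelet, 2 of 8 lymphocyte, 1 of 8 neutrophil, 2 of 4 mesothelial and 5 of 5 lymphatic genes. The summed levels of each list overlapped between KO and WT. Alternatives were other size factors, filters, DESeq2 1.42.0, limma voom (limma 3.58.1), edgeR's newer dispersion option, the replicate number as a block, a correction for transcript length and GC content (a smooth trend fitted per library), a threshold of 0.01 and each library left out in turn.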

Additional observations from a re-analysis of the deposited data

Results flagged for a closer look

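Plat stood apart in KO replicate 1, at 384 CPM, while the other 3 KO libraries held 149 to 182 CPM. The gap to the next library was 0.856 of the range of the 4, above Dixon's 95% critical value for 4 samples. Of 56 groups of 4 libraries looked at (28 genes in KO and in WT) this was the 1 group to exceed it. Chance alone flags about 1 group in 20, so 1 of 56 is no more than chance would give. KO replicate 1 was also the library with the least Uqcrq (1.59 CPM).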

How the results depend on the processing

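Over 18 alternatives, the threshold of 0.01 aside, Timp3 passed in each, with log2 fold changes of 1.95 to 2.42. Plaur passed in 17 (0.84 to 1.16) and Plat in 15 (1.09 to 1.64). Adamts1 passed in 3 (-0.61 to -0.39). Timp2 (-0.18 to -0.01) and Mmp14 (-0.38 to -0.08) kept their sign and did not pass. Timp1 did so in 17 (2.04 to 4.36), as DESeq2 gave it no adjusted p. With libraries left out in turn Mmp2 ranged from -0.21 to 0.14 and Plau from -0.12 to 0.55. Mmp15 was -0.016 with RLE factors and by DESeq2, -0.031 with totals only and -0.032 to 0.12 with libraries left out, while Tfpi2 was 0.71 by limma voom, 1.41 with the replicate block and -1.07 to 0.36, and Ctsb -0.098 to 0.052, with libraries left out. The causes were not tested.

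The number of genes called was 788 by DESeq2 (371 of them lower), 746 with the newer dispersion option (450 higher, 296 lower), 150 after correction for length and GC (57 higher, 93 lower), 206 at an adjusted p of 0.01 (130 higher, 76 lower) and 270 to 446 with 1 library left out (173 to 259 higher, 97 to 187 lower). Without KO replicate 3 it was 270. Lower genes were 105 without KO replicate 2 and 111 without WT replicate 2. The same correction moved the median of all genes to -0.10, against 0.01 in the main comparison, left 1 of the 9 genes called (Timp3) and 0 of the other plasminogen genes by edgeR, which had 1 at an adjusted p of 0.01. Of the 9 genes 2 to 3 were called with 1 library left out, and 2 at an adjusted p of 0.01. The ADAMTS list had 1 gene called by DESeq2 and 1 with the newer option, the ADAM list 1 by DESeq2, and the cathepsin list 1 with no filter, by DESeq2, by limma voom and with the newer option, and 0 to 1 with libraries left out. The other matrix proteases had 2 with no filter, by DESeq2 and with the newer option.

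Replicate numbers did not pair the libraries: deviations from the group means correlated at -0.10 to 0.00 between KO and WT libraries of the same number. With the replicate block 338 genes were called, Timp3 and Plaur passed, and Plat (1.40) and Eno1 (0.76) did not.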
